A study of Mus musculus with 16 samples.

Results

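The 9 genes described here encode transcription factors of the Sertoli cell lineage, the supporting cells that enclose the germ cells in the testis cords. They were taken as a list of names, with no threshold on a measured value but with earlier results of these data known, and all 9 were found among the 30451 genes of the table: *Sox9*, *Sox8*, *Wt1*, *Gata4*, *Gata1*, *Dmrt1*, *Nr5a1*, *Nr0b1* and *Emx2*. RNA was counted in single cells from dissociated whole mouse testes at postnatal day 2 (P2), as unique molecular identifiers (UMIs), each of which stands for 1 captured transcript. One library came from wild-type mice and one from mice labelled *Ddx5* knockout, in which floxed *Ddx5*, an RNA helicase gene, is deleted by *Mvh*-Cre, a recombinase made in germ cells, so that the Sertoli cells themselves keep an intact *Ddx5* by design. The study's methods also describe an *Oct4*-GFP transgene, which marks germ cells, and give no number of animals per library. The labels list 8 libraries per genotype, but the barcodes carry 1 suffix per genotype, so each genotype was 1 library here, no test between genotypes was possible, and genotype and library cannot be told apart.

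The factors act at successive steps of gonad formation. NR5A1, a nuclear receptor that also activates steroidogenic genes, WT1, a zinc-finger protein, GATA4 and the homeobox protein EMX2 are needed to build the gonad before it takes on a sex. SOX9 then turns supporting cells into Sertoli cells after SRY has acted, its close relative SOX8 works redundantly with it, and DMRT1 keeps the male fate. NR0B1 is a receptor without a DNA-binding domain that represses NR5A1, and GATA1 is best known from red blood cell precursors, megakaryocytes, mast cells and eosinophils, but is also made by Sertoli cells.

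After cells with fewer than 2000 genes or more than 10% mitochondrial UMIs were removed, 6329 wild-type cells and 4950 cells labelled *Ddx5* knockout remained, with medians of 11170 and 11668 UMIs per cell. Cells were gated on marker UMIs, and each gate's name stands for that rule, not for an annotation of the study. Sertoli cells carried at least 3 UMIs of *Amh*, the anti-Müllerian hormone gene, and were split by *Mki67* plus *Top2a* into cycling cells, with at least 4 UMIs, and non-cycling cells, with at most 1. There were 1248 wild-type and 834 knockout-label non-cycling Sertoli cells, 816 and 657 cycling Sertoli cells, 47 and 9 Pax8-type cells (*Pax8*, *Ecrg4* and *Cnmd*), 177 and 143 Leydig cells, 764 and 524 myoid cells, 3590 and 3005 stroma cells and 125 and 12 germ cells. A further 46 and 54 macrophage-gated cells, which should lack these factors, served as one measure of background, although 9 and 15 of them also passed another gate, 2 and 8 were called doublets, and Leydig markers summed to 1659 and 702 CPM in them, so that mixed cells may add to free RNA there. In the Sertoli gate, 7 of 7 marker genes were found, with a summed level of 12600 counts per 1000000 UMIs (CPM) in the wild-type and 11366 CPM in the knockout-label non-cycling cells, against 171 and 141 CPM in stroma. These markers include *Amh*, which set the Sertoli gate and was limited in the stroma gate. *Amh* made up 1159 and 1130 CPM of the Sertoli sums. The gates overlapped in 1415 cells: 37 of 56 Pax8-type cells, 39 of 137 germ cells, 57 of 1288 myoid cells and 19 of 320 Leydig cells also passed the Sertoli gate, and 1152 myoid cells passed the stroma gate. The libraries shared 12 barcode sequences. *Ddx5* UMIs were not lower in the germ cells labelled knockout. They stood at 1152 CPM in the wild-type germ cells and at 1736 CPM in the 12 germ cells labelled knockout. That is 1.51-fold higher (95% interval 1.40 to 1.62), although all 20 *Cre* UMIs had the knockout label. By contrast, the study reports a strong fall of *Ddx5* mRNA in sorted *Oct4*-GFP gonocytes at P2, measured by single-cell qRT-PCR. The gated germ cells also differed in make-up: 39 of 125 wild-type and 0 of 12 knockout-label cells passed the Sertoli gate. Wild-type non-cycling Sertoli cells held 916 CPM of *Ddx5*. The part of such mixed cells, and whether the UMIs came from an intact *Ddx5*, was not tested. All intervals below are exact 95% intervals for counting error only. UMIs were read at the 3′ end of transcripts and do not grow with gene length, so CPM values of different genes were set side by side.

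The RefSeq promoter table for GRCm38.p6 held 4 of the 9 genes. Its start sites differ from those of the gene annotation used for the spans given at the end: the windows of 250 bases before the RefSeq starts of *Gata1* and *Emx2* lie inside the annotated genes and are not printed, and that of *Nr0b1* reaches a few bases into its gene. The windows of *Sox8* and *Nr0b1*, both higher in Sertoli cells than in stroma, are shown 5′ to 3′. Capitals mark a SOX motif (ACAAAG or AACAAT, searched on both strands).
Sox8, chr17:25570687-25570936, strand -: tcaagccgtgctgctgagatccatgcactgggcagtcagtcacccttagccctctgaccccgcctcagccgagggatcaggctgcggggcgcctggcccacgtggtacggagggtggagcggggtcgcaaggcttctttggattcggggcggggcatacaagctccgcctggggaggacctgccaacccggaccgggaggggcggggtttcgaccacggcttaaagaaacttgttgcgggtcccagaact
Nr0b1, chrX:86191525-86191774, strand +: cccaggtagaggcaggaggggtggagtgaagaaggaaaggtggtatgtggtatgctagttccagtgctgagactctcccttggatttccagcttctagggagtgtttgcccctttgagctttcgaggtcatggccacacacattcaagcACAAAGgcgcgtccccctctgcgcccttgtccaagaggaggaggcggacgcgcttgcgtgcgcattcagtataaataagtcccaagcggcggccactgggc

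The GC content of these windows was 65.6% for *Sox8*, 57.2% for *Nr0b1*, 54.0% for *Gata1* and 67.2% for *Emx2*, against a median of 52.4% over 32851 promoters. One SOX match was found, in *Nr0b1*, with its first base at position -101 from the start, and 24.0% of all promoters hold such a match. No GATA motif (GATAA preceded by A or T, or GATAG preceded by A or T, in 26.5% of promoters), NR5A1 motif (AAGGTCA or AAGGCCA, 9.09%), WT1 motif (GCGTGGG, 4.30%) or DMRT1 motif (ACATTGT, 2.56%) was present in these 4 windows. A match is a description of the letters only, and its absence says nothing about binding.

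Together the 9 factors made up 986 CPM in the wild-type and 1015 CPM in the knockout-label non-cycling Sertoli cells, 995 and 1056 CPM in the cycling ones and 1013 and 968 CPM in Pax8-type cells. The same sum was 539 and 674 CPM in Leydig cells, 233.1 and 231.6 CPM in myoid cells and 179 and 187 CPM in stroma. In wild-type non-cycling Sertoli cells *Sox9* held 25.9% of these UMIs, *Wt1* 24.98%, *Gata4* 19.2%, *Dmrt1* 9.58%, *Nr5a1* 8.53%, *Sox8* 5.78% and *Nr0b1* 5.66%, and *Gata1* and *Emx2* held 0.360% and 0.0621%. In wild-type Pax8-type cells *Wt1* held 32.0%, *Sox9* 25.8%, *Gata4* 16.4% and *Dmrt1* 8.32%. Other factors held most in the remaining types: *Nr5a1* held 56.8% of the factors' UMIs in wild-type Leydig cells, *Gata4* 54.0% in wild-type stroma and *Dmrt1* 45.4% in wild-type germ cells.

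**Figure D1:**
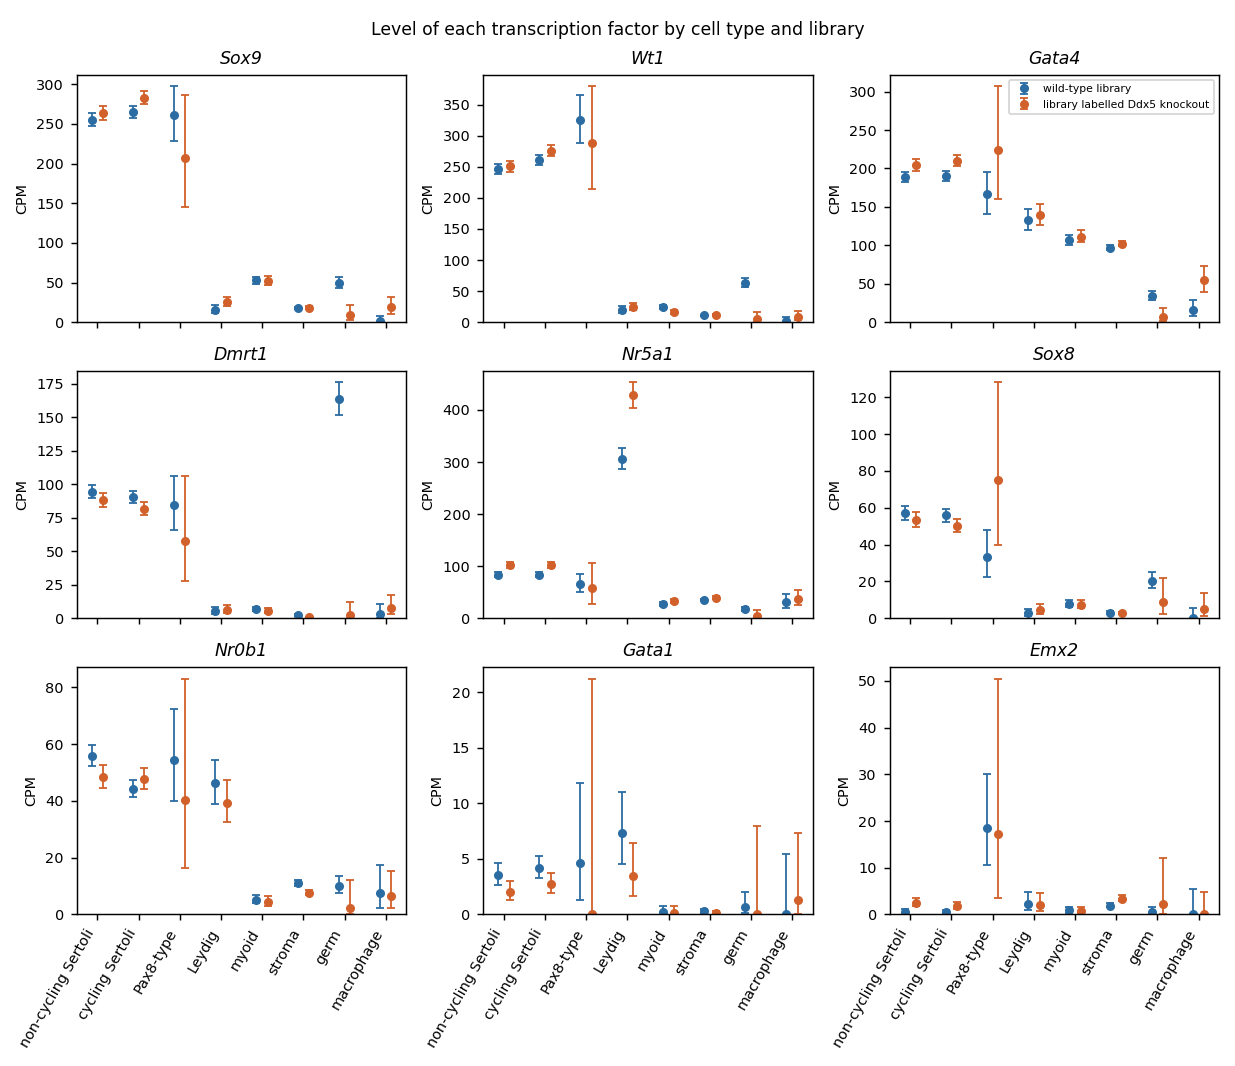
Level of each factor in CPM ( vertical axis from 0) in the 8 gated cell types, in the wild-type library (blue) and the library labelled Ddx5 knockout (orange), with exact 95% intervals for counting error. Sox9, Wt1, Sox8 and Dmrt1 were high in both Sertoli groups and the Pax8-type cells, Nr5a1 was highest in Leydig cells at 306 and 428 CPM, and Dmrt1 reached 163 CPM in wild-type germ cells.

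The SOX factors were higher in Sertoli cells than in stroma, Leydig and myoid cells of both libraries. *Sox9* stood at 256 CPM in the wild-type and 264 CPM in the knockout-label non-cycling Sertoli cells, with at least 1 UMI in 89.8% and 92.3% of cells. It stood at 18.3 and 18.3 CPM in stroma, 15.9 and 25.7 CPM in Leydig cells and 52.7 and 52.4 CPM in myoid cells, and at 1.48 and 18.5 CPM in the macrophage-gated cells, where 9 of the 14 knockout-label UMIs lay in 1 cell. *Sox9* was 14.0-fold (12.9 to 15.1) and 14.4-fold (13.2 to 15.7) higher in non-cycling Sertoli cells than in stroma. *Sox8* stood at 57.0 and 53.4 CPM in non-cycling Sertoli cells, 18.4-fold (15.2 to 22.4) and 18.8-fold (15.2 to 23.6) above stroma, where it was at 3.104 and 2.835 CPM. *Sox8* was at 2.66 and 4.52 CPM in Leydig cells and 7.87 and 7.44 CPM in myoid cells, so that each paralog was below its own Sertoli level there. Both were high in Pax8-type cells, *Sox9* at 261 and 207 CPM and *Sox8* at 33.5 and 74.9 CPM.

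Myoid cells, the contractile cells around the cords, held more *Sox9* than stroma. Their level was 2.88-fold (2.57 to 3.23) and 2.86-fold (2.504 to 3.255) that of stroma, although most myoid cells were also in the stroma gate. Among myoid cells with no *Amh* UMI, *Sox9* was found in 27.6% of 699 wild-type and 35.6% of 477 knockout-label cells, against 13.3% and 13.7% of such stroma cells. In macrophage-gated cells with no *Amh* UMI it was found in 0 of 44 cells, which allows up to 8.04%, and in 8% (2.22 to 19.2%) of 50 cells. The myoid shares were above these background intervals in both libraries, and the stroma share was above the wild-type interval but inside the knockout-label one. In Leydig cells 37 of 48 wild-type and 64 of 74 knockout-label *Sox9* UMIs lay in cells that also passed the Sertoli gate, and Leydig cells with no *Amh* held 4.195 and 2.539 CPM.

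*Wt1* followed *Sox9*. It stood at 246 and 251 CPM in non-cycling and 261 and 276 CPM in cycling Sertoli cells, and at 325 and 288 CPM in Pax8-type cells. Stroma was at 10.98 and 11.58 CPM, 22.4-fold (20.3 to 24.8) and 21.7-fold (19.5 to 24.2) below. *Wt1* in the wild-type Pax8-type cells was above that of the non-cycling Sertoli cells, whose level was 0.759 times theirs (0.672 to 0.859), and the same ratio was 0.872 (0.660 to 1.18) in the knockout-label library. In myoid cells 201 of 245 wild-type and 97 of 116 knockout-label *Wt1* UMIs lay in cells of the Sertoli gate. Myoid cells with no *Amh* held 4.08 and 3.07 CPM, less than stroma cells with no *Amh*, at 10.5 and 11.6 CPM.

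*Gata4* was the broadest of the factors. Its level fell from 189 and 205 CPM in non-cycling Sertoli cells through 133 and 140 CPM in Leydig cells and 107 and 111 CPM in myoid cells to 96.8 and 102 CPM in stroma. Sertoli cells were 1.95-fold (1.86 to 2.05) and 2.01-fold (1.90 to 2.11) above stroma, on either side of the 2-fold line used for calls, and 1.42-fold and 1.46-fold above Leydig cells. The intervals of neighbouring types in this order did not overlap in the wild-type library for Sertoli, Leydig, myoid and stroma cells, and in the knockout-label library those of myoid and stroma cells did, although the interval of their ratio, 1.09 (1.01 to 1.18), lay above 1. Macrophage-gated cells held 16.3 and 54.3 CPM, and in those that passed no other gate *Gata4* was found in 1 of 37 and 2 of 39 cells.

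*Gata1* was at the edge of detection, and its UMIs lay in Sertoli and Leydig cells. There were 58 wild-type and 25 knockout-label UMIs in non-cycling Sertoli cells, or 3.55 and 2.05 CPM, and 74 and 39 UMIs in cycling Sertoli cells, or 4.17 and 2.72 CPM. Stroma, with more cells, gave 11 and 4 UMIs, or 0.282 and 0.121 CPM, so that non-cycling Sertoli cells stood 12.6-fold (6.54 to 26.6) and 17.0-fold (5.88 to 67.3) higher. Leydig cells held 22 and 10 UMIs, or 7.31 and 3.48 CPM, 25.9-fold (12.03 to 59.12) and 28.8-fold (8.32 to 126) above stroma. Leydig cells were above non-cycling Sertoli cells in the wild-type library, whose Sertoli level was 0.486 times (0.293 to 0.834) the Leydig level, and the interval of the same ratio, 0.590 (0.274 to 1.38), held 1 in the other library. *Gata1* was found in 10.2% and 6.99% of Leydig cells, against 0 of 46 macrophage-gated cells, which allows up to 7.71%, and 1.85% (0.0469 to 9.89%) of 54. The shares were 4.41% (3.34 to 5.70%) and 2.76% (1.76 to 4.11%) in non-cycling and 8.09% (6.31 to 10.2%) and 5.63% (3.996 to 7.68%) in cycling Sertoli cells. The macrophage intervals, from few cells, reach above most of these shares, but myoid cells, at 0.262% (0.0317 to 0.942%) and 0.191% (0.00483 to 1.06%), and stroma cells, at 0.306% (0.153 to 0.548%) and 0.133% (0.0363 to 0.3405%), lay below all of them. Median depths were 11313 and 11760 UMIs in myoid, 9838 and 9933 in stroma, 11946 and 13556 in non-cycling Sertoli, 18770 and 20745 in cycling Sertoli and 14732 and 17355 in Leydig cells.

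Of the Leydig *Gata1* UMIs, 1 of 22 and 0 of 10 lay in cells of the Sertoli gate and 7 of 22 and 3 of 10 in cells of the stroma gate. The 18 wild-type Leydig cells with *Gata1* had 10441 CPM of *Cyp11a1*, the first enzyme of steroid synthesis, against 10506 CPM in the other 159, and held no UMI of the macrophage genes *C1qa*, *Csf1r*, *Adgre1* and *Lyz2* and 1 UMI of *Tyrobp*. In the knockout-label library 1 of the 10 cells with *Gata1* also passed the macrophage gate, and the 10 together held 1224 CPM of *Lyz2* against 0.755 CPM in the other 133. All 5 mast cell and eosinophil markers, *Cpa3*, *Fcer1a*, *Ms4a2*, *Prg2* and *Epx*, were at 0 in Leydig cells of both libraries. The megakaryocyte list, with 2 of its 3 genes found, summed to 31.2 and 17.7 CPM in Leydig cells, 7.35 and 4.52 CPM in non-cycling Sertoli cells, 9.83 and 9.02 CPM in stroma and 1735 and 999.9 CPM in the macrophage-gated cells, and its part in the *Gata1* level was not tested. The erythroid list of 4 genes summed to 4.32 CPM in the wild-type Leydig cells and to 1200 CPM in the knockout-label Leydig cells, and its part in the *Gata1* level was not tested. These cells were described after their values were seen.

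*Dmrt1* marked Sertoli cells and wild-type germ cells. It stood at 94.5 and 88.2 CPM in non-cycling and 90.5 and 81.5 CPM in cycling Sertoli cells. In the 125 wild-type germ cells it reached 163 CPM and was found in 89.6% of cells, 1.73-fold above the non-cycling Sertoli cells, whose level was 0.578 times (0.529 to 0.633) theirs. The 70 wild-type germ cells with no *Amh* UMI held 158 CPM. The 12 knockout-label germ cells held 1 *Dmrt1* UMI in 463254 UMIs, or 2.16 CPM (0.05465 to 12.03). Leydig cells held 5.31 and 6.26 CPM, all of it in cells of the Sertoli gate: among Leydig cells with no *Amh*, 0 of 160 and 0 of 124 carried a *Dmrt1* UMI, which allows up to 2.28% and 2.93% of cells.

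The nuclear receptor pair reached beyond the Sertoli lineage. *Nr5a1* stood at 84.1 and 101 CPM in non-cycling Sertoli cells, 34.4 and 39.7 CPM in stroma and 27.6 and 33.0 CPM in myoid cells. The macrophage-gated cells reached 31.1 and 37.1 CPM, with 13 and 16 of their 21 and 28 UMIs in 1 cell each, and *Nr5a1* was found in 8.70% (2.42 to 20.8%) and 13.0% (5.37 to 24.9%) of them against 26.6% and 28.5% of stroma cells. Leydig cells, the steroid-producing cells of the interstitium, held 306 and 428 CPM, 3.64-fold and 4.22-fold above non-cycling Sertoli cells and 8.89-fold (8.17 to 9.68) and 10.8-fold (9.97 to 11.7) above stroma. *Nr0b1*, the gene of its repressor, was also above stroma in Leydig cells, by 4.13-fold (3.38 to 5.005) and 5.09-fold (4.04 to 6.38). Unlike *Nr5a1*, it was not above the Sertoli level there. *Nr0b1* stood at 46.2 and 39.3 CPM in Leydig cells against 55.8 and 48.5 CPM in non-cycling Sertoli cells, 1.21-fold (1.01 to 1.46) and 1.23-fold (1.01 to 1.52) lower. It was at 11.2 and 7.72 CPM in stroma and 5.18 and 4.49 CPM in myoid cells. The number of *Nr5a1* UMIs per *Nr0b1* UMI was thus higher in Leydig than in Sertoli cells of both libraries.

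*Emx2* was low in Sertoli cells and highest in the Pax8-type cells. There were 10 and 31 UMIs in non-cycling Sertoli cells, or 0.613 and 2.55 CPM, against 16 and 3 UMIs in the far fewer Pax8-type cells, or 18.5 and 17.3 CPM. That is 30.2-fold and 6.79-fold more, where the Sertoli level was 0.0331 (0.0134 to 0.0776) and 0.147 (0.0460 to 0.753) times that of the Pax8-type cells, and the 3 knockout-label UMIs came from 1 cell, which also passed the Sertoli gate. With the Pax8-type gate limited to at most 2 *Amh* UMIs, a setting added after seeing the data, *Emx2* stood at 47.7 CPM in 18 wild-type cells and had no UMI in the 1 knockout-label cell left. Stroma held 74 and 113 UMIs, or 1.90 and 3.41 CPM. In the 12 wild-type cells that passed the Pax8-type gate and no other, *Emx2* rested on 8 UMIs in 6 cells, or 53.1 CPM, with *Wt1* at 696 CPM, *Sox9* at 365 CPM and *Nr0b1* at 139 CPM, while *Cst9*, a Sertoli cystatin, had 0 UMIs. No knockout-label cell passed the Pax8-type gate alone.

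**Figure D2:**
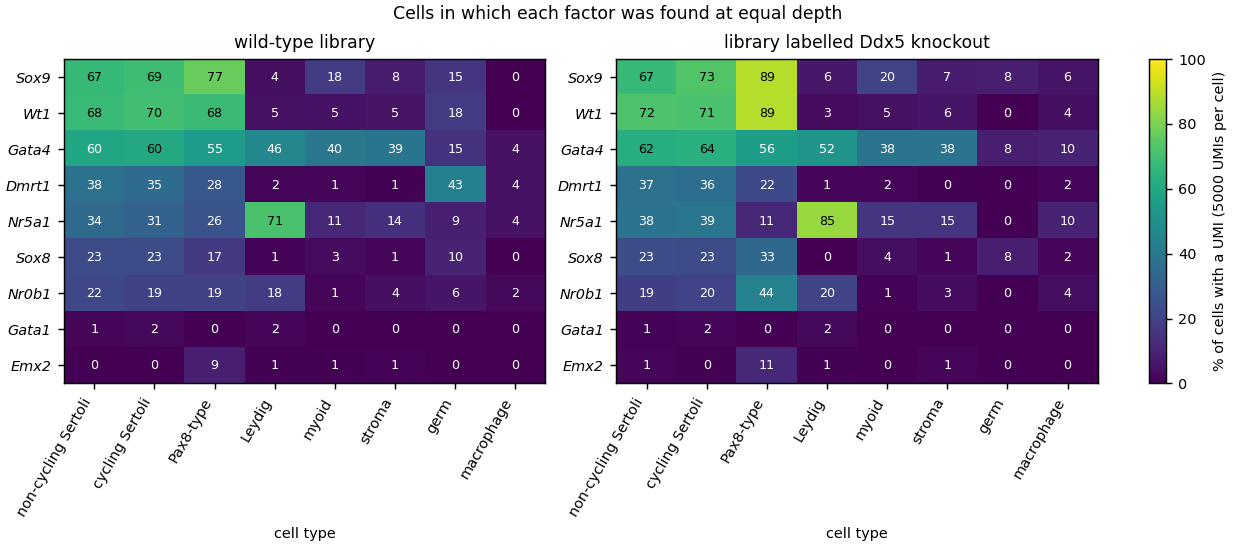
Percentage of cells with at least 1 UMI of each factor after every cell was thinned to 5000 UMIs, by cell type, in the wild-type library (left) and the library labelled Ddx5 knockout (right). At equal depth Sox9 was found in 66.9% and 66.9% of non-cycling Sertoli cells, Gata4 in 38.0% or more of Leydig, myoid and stroma cells, and Gata1 and Emx2 in few cells of any type.

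Cycling cells had more UMIs, and shares were therefore taken at 5000 UMIs per cell. *Sox9* was then found in 66.9% and 66.9% of non-cycling Sertoli cells, *Wt1* in 67.8% and 71.9%, *Gata4* in 59.9% and 62.4%, *Dmrt1* in 37.9% and 37.2%, *Nr5a1* in 34.4% and 38.0%, *Sox8* in 23.2% and 23.5% and *Nr0b1* in 21.8% and 18.7%. In cycling Sertoli cells *Sox9* was found in 69.0% and 72.9% of cells, *Wt1* in 69.8% and 71.2%, *Gata4* in 60.2% and 63.6%, *Dmrt1* in 35.1% and 36.2%, *Nr5a1* in 31.5% and 39.3%, *Sox8* in 22.97% and 23.3% and *Nr0b1* in 19.4% and 19.9%. The macrophage-gated cells, at medians of 12818 and 9785 UMIs before thinning, gave between 0% and 9.62% for these 7 genes.

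Counted over all genes, the factors were called where they differed at least 2-fold in each library, among genes with at least 20 UMIs in the 2 groups together in each library. Against stroma, 7 of 9 were higher in non-cycling Sertoli cells, where 12.4% of 16010 genes were called, and *Gata4* and *Emx2* were not. Against myoid cells 7 of 8 were higher (13.8% of all genes), and *Gata4* was not. Against Leydig cells 4 of 8 were higher, *Sox9*, *Sox8*, *Wt1* and *Dmrt1* (11.8%), and *Nr5a1* was lower (10.7%). Against wild-type germ cells 7 of 8 were higher (17.2%), *Dmrt1* being the exception. None of the factors was lower than in stroma (22.6% of all genes), myoid cells (17.1%) or wild-type germ cells (30.6%). Against Pax8-type cells none was higher (0.32%), and *Emx2* was lower (3.84%), a call that was lost with that limit on *Amh*. *Emx2* had too few UMIs to be counted against Leydig, myoid and germ cells. The median log2 ratio of the measured factors, with 10 CPM added to each level, was 1.68 against stroma, 1.97 against myoid cells, 1.38 against Leydig cells and 0.10 against Pax8-type cells, beside -0.03, 0.01, 0.04 and 0.04 over all measured genes.

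**Figure D3:**
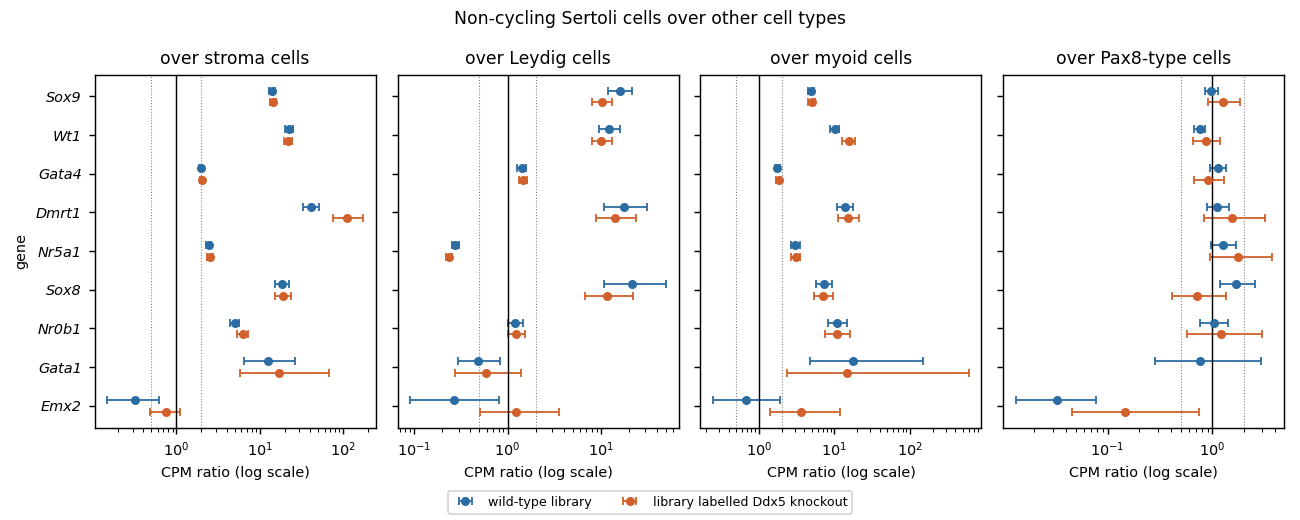
Ratio of the CPM in non-cycling Sertoli cells to that in stroma, Leydig, myoid and Pax8-type cells (log axis), for each factor and library, with exact 95% intervals for counting error. The solid line marks 1 and the dotted lines 2-fold either way, ratios against a group without a UMI are not drawn, and 7 of 9 factors lay above 2-fold against stroma in both libraries.

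The factors differed little between cycling and non-cycling Sertoli cells. In cycling over non-cycling Sertoli cells 0 of 8 were called higher, where 3.38% of all genes were, and 0 of 8 lower, where 0.265% were. *Wt1* was 1.06-fold (1.02 to 1.11) and 1.10-fold (1.05 to 1.15) higher in the cycling cells. *Sox9* was 1.04-fold (0.996 to 1.08) and 1.08-fold (1.03 to 1.13) higher, and *Gata4* and *Nr5a1* had intervals that held 1 in both libraries. *Nr0b1* was at 0.794 times (0.720 to 0.874) its non-cycling level in the wild-type library, and at 0.987 times (0.883 to 1.10) in the other. Germ cell markers summed to 26.9 CPM in non-cycling and 124 CPM in cycling wild-type Sertoli cells, and to 0.903 and 0.906 CPM in the knockout-label ones. Their part in the *Nr0b1* difference was not tested.

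Within the non-cycling Sertoli cells no difference of the 7 well-detected factors with *Amh*, the gene that defined the gate, was detectable at this depth. Cells were ranked in 3 parts by their *Amh* UMIs after thinning, and *Amh* rose from 535 to 2115 CPM in the wild-type and from 525 to 2144 CPM in the knockout-label library. *Sox9* went from 263 to 244 CPM and from 283 to 248 CPM, with ratios of the high to the low part of 0.927 (0.817 to 1.05) and 0.875 (0.754 to 1.01). The ratios of *Wt1* were 1.05 (0.925 to 1.19) and 1.08 (0.930 to 1.25), and those of *Gata4* 0.930 (0.805 to 1.07) and 0.981 (0.828 to 1.16). The intervals of *Sox8*, *Dmrt1*, *Nr5a1* and *Nr0b1* also held 1 in both libraries. Some genes of Sertoli cell products were higher in the high part of the same cells: *Inha*, the inhibin alpha subunit, by 1.23-fold (1.18 to 1.28) and 1.44-fold (1.37 to 1.51), and *Clu*, clusterin, by 1.35-fold in each library. *Dhh* gave 1.11 (0.971 to 1.26), an interval that held 1, and 1.25 (1.08 to 1.45). The wild-type intervals of *Sox8* (0.868 to 1.46) and *Nr0b1* (0.819 to 1.44) held the ratio of *Inha*, so a difference of that size was not detectable for them, while that of *Sox9* did not reach it.

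The factors were found together in single Sertoli cells. At 5000 UMIs a median of 3 of the 9 was found per Sertoli cell in both libraries. At least 4 were found in 37.1% (34.4 to 39.8%) and 40.8% (37.5 to 44.3%) of non-cycling Sertoli cells, and in 37.1% and 44.8% of cycling ones. The same share was 31.9% and 44.4% in Pax8-type cells, 1.70% and 1.41% in Leydig cells, 0.788% and 1.34% in myoid cells and 0.170% and 0.136% in stroma. Of the Pax8-type cells, 29 of 47 wild-type and 8 of 9 knockout-label ones also passed the Sertoli gate. Wild-type germ cells gave 10.6%, in a gate where 39 of 125 cells also passed the Sertoli gate.

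**Figure D4:**
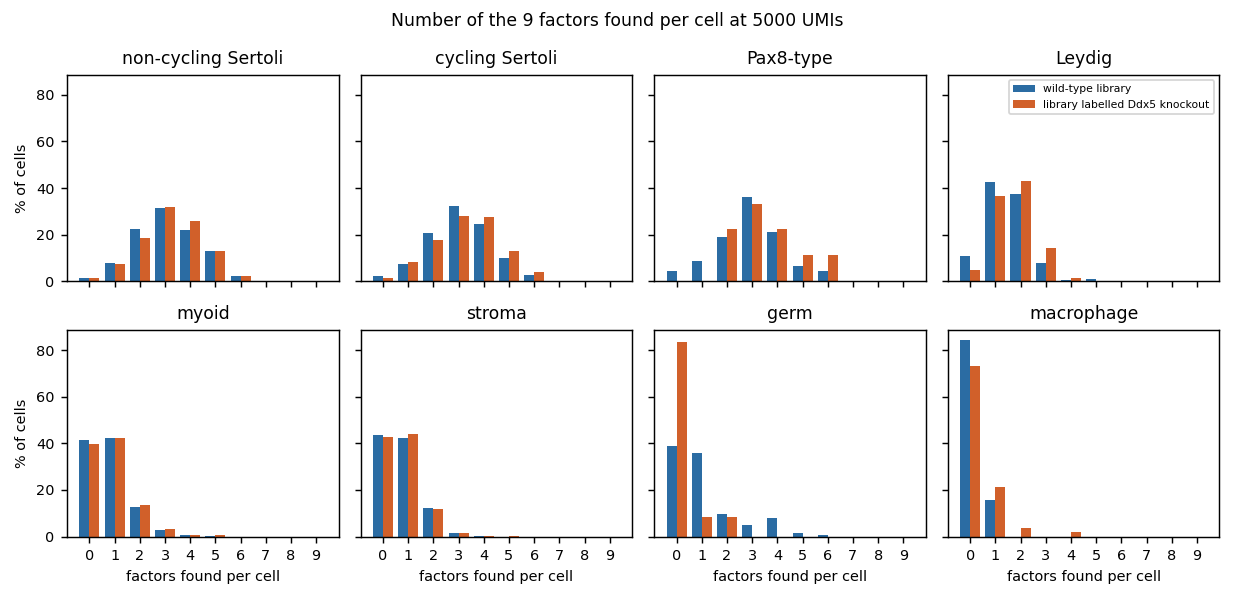
Percentage of cells (vertical axis) by the number of the 9 factors found per cell (horizontal axis) after thinning to 5000 UMIs, for the wild-type library (blue) and the library labelled Ddx5 knockout (orange). Sertoli and Pax8-type cells centred on 3 factors, Leydig cells on 1 and 2, and myoid and stroma cells on 0 and 1. Most Pax8-type cells also passed the Sertoli gate.

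Between the libraries the Sertoli levels of the main factors were close. In non-cycling Sertoli cells the ratio of the library labelled *Ddx5* knockout to the wild-type library was 1.03 (0.985 to 1.08) for *Sox9*, 1.02 (0.973 to 1.07) for *Wt1*, 1.08 (1.03 to 1.14) for *Gata4*, 0.937 (0.846 to 1.04) for *Sox8* and 0.934 (0.863 to 1.01) for *Dmrt1*. Of the 9 factors, *Emx2* was at least 2-fold apart there, as were 3.01% of 14265 genes. Over 6 types, without germ and macrophage-gated cells, 5 of 48 pairs of factor and cell type were at least 2-fold apart, against 5.19% of 78442 pairs over all genes. That count was lower after thinning, under a stricter cell filter, with the mean over cells and with a higher UMI minimum. It was higher at a lower fold. The interval lay above 1 in 15 of the 48 pairs and below 1 in 8, against 8.91% and 11.6% of all pairs, which describes how many UMIs these genes have as well as how far apart they were. None of these values has a replicate.

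**Figure D5:**
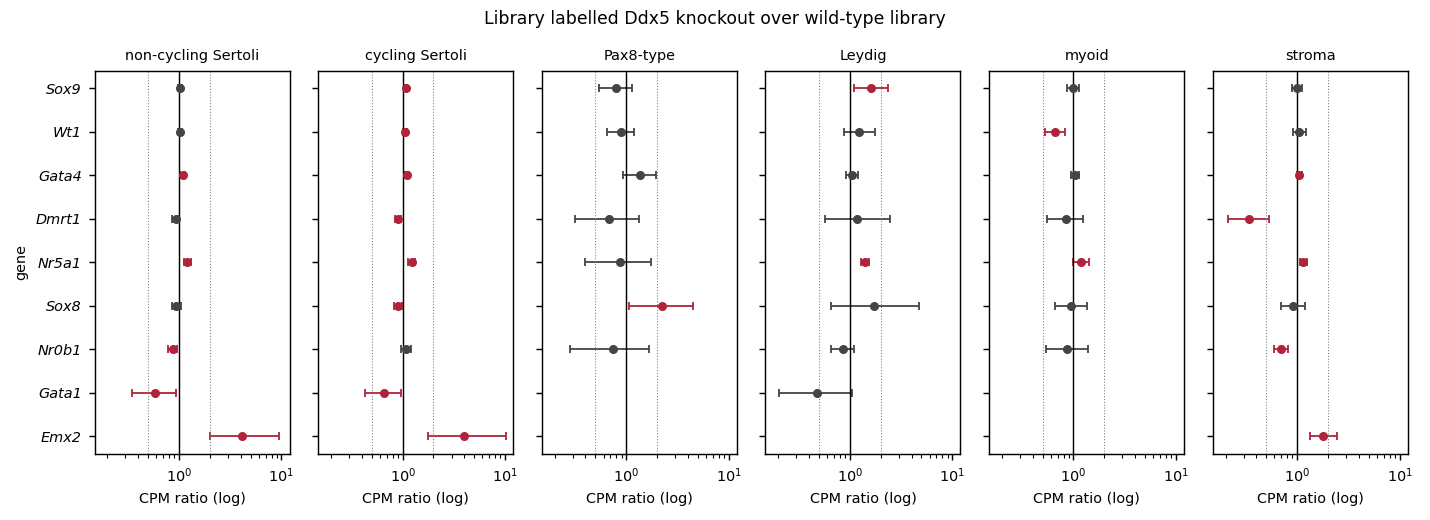
Knockout-label CPM divided by wild-type CPM (log axis) for each factor in 6 cell types, with exact 95% intervals for counting error. Red points have an interval without 1, dotted lines mark 2-fold either way, pairs with fewer than 20 UMIs are not drawn, and Nr5a1 lay above 1 in 5 of 6 types.

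*Nr5a1* was higher in the library labelled *Ddx5* knockout in 5 of 6 types with an interval above 1. The ratios were 1.21 (1.12 to 1.30) in non-cycling and 1.22 (1.14 to 1.31) in cycling Sertoli cells, 1.40 (1.28 to 1.53) in Leydig cells, 1.20 (1 to 1.43) in myoid cells and 1.15 (1.07 to 1.25) in stroma, and 0.874 (0.398 to 1.73) in the few Pax8-type cells. The 5 Leydig markers, all of them found, summed to 109 CPM in the wild-type and 284 CPM in the knockout-label non-cycling Sertoli cells and to 121 and 118 CPM in the cycling ones, and their part in the *Nr5a1* level was not tested. In Sertoli cells that passed no other gate *Nr5a1* stood at 86.9 and 99.7 CPM. *Nr5a1os*, which the annotation places on the opposite strand of *Nr5a1*, stood at 0.980 and 0.985 CPM in non-cycling Sertoli cells. *Nr0b1* went the other way in non-cycling Sertoli cells, at 0.868 (0.782 to 0.964), and in stroma, at 0.690 (0.589 to 0.807), but was at 1.08 (0.973 to 1.20) in cycling Sertoli cells.

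*Emx2* was higher in the library labelled *Ddx5* knockout by 4.16-fold (1.986 to 9.504) in non-cycling Sertoli cells, 4.02-fold (1.77 to 10.3) in cycling ones and 1.80-fold (1.33 to 2.44) in stroma. It was found in 0.721% and 3.72% of non-cycling Sertoli cells, and 0 of 46 and 0 of 54 macrophage-gated cells allow shares of up to 7.71% and 6.60%. Myoid cells, of which there were more, held it in 0.916% (0.369 to 1.88%) and 0.573% (0.118 to 1.66%) of cells. The knockout-label Sertoli shares, 3.72% (2.54 to 5.24%) in non-cycling and 3.65% (2.35 to 5.39%) in cycling cells, lay above the myoid interval, and the wild-type non-cycling share (0.330 to 1.37%) overlapped it. Without cells that passed a second gate, it stood at 0.417 and 2.01 CPM in Sertoli cells. The 18 wild-type Sertoli cells with *Emx2* held 48.9 CPM of *Pax8*, or 20 UMIs, against 0.411 CPM in the others, and 2 of the 18 also passed the Pax8-type gate. In the knockout-label library *Pax8* had 0 UMIs both in the 58 Sertoli cells with *Emx2* and in the other 1577. Of the Sertoli cells with *Emx2*, 5 and 9 were called doublets, in a gate where 215 of 2256 and 219 of 1635 were. Their median depth was 23482 and 16395 UMIs against 13701 and 15847 in the others. The part of doublets and depth in these values was not tested. *Lhx9*, a LIM homeobox gene of the early gonad, was higher in the Sertoli cells with *Emx2* than in the others in both libraries, at 46.4 against 17.3 CPM and 62.1 against 27.7 CPM. In stroma *Lhx9* stood at 213 and 234 CPM, against 17.8 and 27.4 CPM in non-cycling Sertoli cells. The part of stroma RNA in its level was not tested. Stroma markers moved with the library in the same direction, at 545 and 799 CPM summed over 7 genes in non-cycling Sertoli cells, and their part in the *Emx2* level was not tested. *Emx2os*, on the opposite strand, had 0 and 2 UMIs in these cells. After thinning to 5000 UMIs *Emx2* stood at 0.162 and 2.41 CPM in non-cycling Sertoli cells, too few UMIs for it to count as measured. These cells were described after their values were seen.

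*Gata1* was lower in the library labelled *Ddx5* knockout, at 0.578 (0.346 to 0.939) in non-cycling and 0.651 (0.430 to 0.972) in cycling Sertoli cells and 0.476 (0.201 to 1.05) in Leydig cells. The megakaryocyte list was lower there too, at 7.35 and 4.52 CPM in non-cycling Sertoli, 6.32 and 0.906 CPM in cycling Sertoli and 31.2 and 17.7 CPM in Leydig cells. The erythroid list was higher in each of these types, and the mast cell and eosinophil list was nearly absent. Their part in the *Gata1* ratios was not tested. *Dmrt1* in stroma was at 0.340 (0.211 to 0.530), but 61 of its 90 wild-type UMIs lay in 13 cells that also passed the germ gate, and in stroma cells of no other gate it stood at 0.854 and 0.812 CPM. *Wt1* in myoid cells was at 0.667 (0.530 to 0.835), with most of its UMIs in Sertoli-gated cells as given above. *Sox8* in Pax8-type cells was at 2.23 (1.07 to 4.44), from 29 and 13 UMIs, in a gate where 8 of the 9 knockout-label cells also passed the Sertoli gate, and with at most 2 *Amh* UMIs its log2 ratio turned to -0.28.

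A list of 34 partner and related transcriptional regulators was set beside the 9 factors, and 33 of them were in the table. Of 28 measured against stroma, 8 were at least 2-fold higher in non-cycling Sertoli cells and 12 lower, beside 12.4% and 22.6% of all genes, with a median log2 ratio of -0.12. *Zfpm1*, the gene of the GATA1 cofactor FOG1, was 18.7-fold and 19.0-fold higher, *Gata6* 12.6-fold and 11.7-fold, *Cited2*, a co-activator gene of the adrenal and gonad, 11.2-fold and 10.6-fold, *Nr4a1* 4.16-fold and 6.07-fold, *Nr0b2*, the relative of *Nr0b1*, 35.6-fold and 38.9-fold and *Dmrta1* 52.8-fold (26.2 to 124) and 95.3-fold (25.4 to 802), from 8 and 2 stroma UMIs and with overlapping intervals. *Zfpm2*, the gene of the GATA4 partner FOG2, was nearly level, with Sertoli to stroma ratios of 0.986 and 0.985. Those lower in Sertoli cells were led by *Nr2f2*, at 0.0725 and 0.0860 times the stroma level, *Tcf21*, *Lhx9* and *Sox11*, and *Nr2f2* and *Tcf21* are themselves among the stroma markers. Against Leydig cells 6 of 23 were higher and *Sox11* was lower, beside 11.8% and 10.7% of all genes. *Gata6* was at 178 and 195 CPM in Sertoli and 257 and 216 CPM in Leydig cells, and *Zfpm1* was 7.19-fold and 7.78-fold higher in Sertoli cells than in Leydig cells.

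Of 30 Sertoli differentiation genes, 29 were measured against stroma, and 24 were higher and 2, *Cyp26b1* and *Col4a1*, lower, beside the same 12.4% and 22.6% of all genes, with a median log2 ratio of 3.82. The 24 include *Amh*, which defined the gate. The cystatin gene *Cst12* was 204-fold and 263-fold higher and *Dhh*, the hedgehog ligand of Sertoli cells, 103-fold and 169-fold, larger ratios than any of the 9 factors reached in the same library. Against Leydig cells 20 of 29 were higher and 3 lower, *Cst8*, *Cyp26b1*, which breaks down retinoic acid, and *Vnn1*, beside 11.8% and 10.7% of all genes. Of 13 ovary-side genes, which oppose the Sertoli fate or mark granulosa cells, 8 were measured against stroma: *Esr2* was higher, at 4.47 and 5.17 CPM, and *Wnt4*, *Rspo1*, *Bmp2* and *Runx1* were lower, again beside 12.4% and 22.6%. *Foxl2*, the granulosa factor, had 2 and 4 UMIs in non-cycling Sertoli cells. In cycling over non-cycling Sertoli cells none of the 3 lists had a gene called in either direction. Between the libraries in non-cycling Sertoli cells, 0 of 24 regulators and 0 of 30 differentiation genes were at least 2-fold apart, and 1 of 7 ovary-side genes was, *Runx1*, from 15 and 5 UMIs, beside 3.01% of all genes, so that such counts are near the background.

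Likeness of pattern was taken as Pearson's r of log2(CPM + 10) over 16 points, the 8 cell types in each library, among 6741 genes that reached 50 CPM. The points share libraries and, through the overlapping gates, cells, so the values are a description. The genes most like *Sox9* were *Dpysl4* (r = 0.987), *Camkk2* and *Socs2*, those most like *Sox8* included *Lgals7* and *Wipf3*, and those most like *Wt1* were *Scrn1* (r = 0.991), *Kazald1* and *Mafa*. *Prpf4b*, *Mmd2* and *Zfp771* were most like *Gata4*, *Enpp2* (r = 0.902), *Gm2044* and *Coasy* most like *Gata1*, and *Arpp19*, *Usp9x* and *Zcrb1* most like *Dmrt1*. *Nr5a1* was most like *Akr1cl* (r = 0.979), *Scarb1*, the lipoprotein cholesterol receptor gene, and *Aldh1b1*, and *Nr0b1* most like *Pak3*, *Cd151* and *Jam2*. For *Emx2* they were *Cnmd* (r = 0.949), *Cd99l2* and *Col9a3*. *Cnmd* is a gene of the Pax8-type gate, so that its high level in those cells was set by the gate. The highest level of *Gata1*, 7.31 CPM, lay below the 10 CPM added to each value, and that of *Emx2* was 18.5 CPM. Among the factors themselves *Sox9* and *Wt1* were most alike (r = 0.972), followed by *Sox8* and *Wt1* (r = 0.953) and *Sox9* and *Sox8* (r = 0.941), and *Nr5a1* and *Dmrt1* were at r = 0.123.

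In the genome (GRCm38, as annotated) the factors lie on 6 chromosomes and none overlaps another. *Sox9* is on chromosome 11 (112782224 to 112787760), *Sox8* on 17 (25565892 to 25570686), *Wt1* on 2 (105126529 to 105173616), *Gata4* on 14 (63198922 to 63271692), *Dmrt1* on 19 (25505618 to 25604329), *Nr5a1* on 2 (38692656 to 38714542) and *Emx2* on 19 (59458372 to 59465357). *Gata1* and *Nr0b1* are on the X chromosome (7959260 to 7978071 and 86191764 to 86195947), with 1 copy in male cells. Each span is the whole gene, exons, introns and untranslated ends included. *Sox8*, *Nr5a1* and *Emx2* overlap a gene on the other strand.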

How the data were processed

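Per the labels, cells from dissociated P2 testes were captured with the Chromium Single Cell 3′ v3 chemistry. The authors aligned the reads to GRCm38 with *GFP* and *Cre* sequences added and deposited 1 table of raw UMI counts per gene and cell, leaving out genes found in fewer than 2 cells. The submitters' processing notes name Cell Ranger 3.1.0 and Seurat 3.1.5. Barcode suffixes were matched to genotypes by the labels and by the cell numbers the study gives. The wild-type number it states exceeds all 5423 barcodes of the smaller suffix, which was therefore taken as the knockout label. The libraries held 84263163 and 67558106 UMIs.

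From the counts, UMIs were summed over the cells of a gate and library and scaled to CPM. Myoid cells had at least 5 UMIs of *Acta2* and 2 of *Myh11*, stroma cells at least 1 of *Pdgfra* and at most 2 of *Amh*, Leydig cells at least 20 of *Cyp11a1*, *Cyp17a1* and *Hsd3b1*, Pax8-type cells at least 3 of their genes, macrophages at least 10 of *C1qa*, *Lyz2* and *Tyrobp* with at most 2 of *Amh*, and germ cells 3 of the 4 genes *Dazl*, *Ddx4*, *Mael* and *Stk31*. Levels have exact Poisson intervals, shares Clopper-Pearson intervals and ratios exact conditional intervals. Groups with 0 UMIs were set to a floor of 3 UMIs for calls, and those with 1 or 2 UMIs were left as counted. Doublets called with Scrublet in scanpy 1.11.5 (4.49% and 5.98% of cells) were kept. Thinning to 5000 UMIs left out 165 of 11279 cells. Python 3.11.15, NumPy 2.4.6 and SciPy 1.17.1 were used. On simulated counts for non-cycling Sertoli cells against stroma, 100 of 100 genes changed 4-fold and 96 of 100 changed 2.5-fold were called, against Leydig cells 100 and 86, and against Pax8-type cells 89 and 57.

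The 9 genes and the lists were chosen with earlier results of these data known. Of each list, up to 6 genes with ratios far from 1 were to be named, and for each factor the 3 most alike in pattern. *Zfpm2*, *Dhh*, *Foxl2* and the Leydig level of *Gata6* were added after their values were seen. The alternatives changed the cell filter, the doublets, the gates, the depth, the scaling, the fold and the UMI minimum. Some genes of the lists and of the likeness ranking are not reported here.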

Additional observations from a re-analysis of the deposited data

Results flagged for a closer look

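The 323 cells that passed none of the gates were used in no comparison, and 8 factors in the wild-type and 7 in the knockout-label cells were found above the level that 3 UMIs give, which was 1.82 and 2.36 CPM. *Gata1* had 0 UMIs in both, and knockout-label *Emx2* had 2. In the 187 wild-type cells *Sox9* stood at 71.0 CPM, *Sox8* at 14.0 CPM, *Wt1* at 89.2 CPM, *Gata4* at 106 CPM, *Dmrt1* at 22.5 CPM, *Nr5a1* at 45.5 CPM, *Nr0b1* at 21.8 CPM and *Emx2* at 3.64 CPM. In the 136 knockout-label cells *Sox9* stood at 51.9 CPM, *Sox8* at 11.8 CPM, *Wt1* at 64.4 CPM, *Gata4* at 115 CPM, *Dmrt1* at 12.6 CPM, *Nr5a1* at 33.8 CPM and *Nr0b1* at 21.2 CPM.

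For 2 factors the ratio of the library labelled *Ddx5* knockout to the wild-type library had an interval above 1 in one cell type and an interval below 1 in another. *Sox8* was at 2.23 in Pax8-type cells and at 0.900 in cycling Sertoli cells, and the first turned to a log2 ratio of -0.28 with at most 2 *Amh* UMIs in the Pax8-type cells. *Wt1* was at 1.06 in cycling Sertoli cells and at 0.667 in myoid cells. The difference between the cell types was not tested.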

How the results depend on the processing

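Of 191 counts of factors called under other settings, 176 stayed within 1.5 times the reported count, and of 1300 log2 ratios 1102 and of 1287 levels 973 moved by less than their counting interval, but of 144 shares of cells 112 moved by more after thinning. The 5 pairs of factor and cell type at least 2-fold apart between the libraries became 3 under a stricter cell filter (3000 genes, 5% mitochondrial UMIs), 3 with the mean over cells, 1 after thinning, 1 with at least 100 UMIs and 10 at a fold of 1.5. The 1 factor apart in non-cycling Sertoli cells, *Emx2*, became 0 after thinning, 0 with at least 100 UMIs and 2 at a fold of 1.5. The 1 factor lower there than in Pax8-type cells, also *Emx2*, became 0 after thinning, 0 with at least 100 UMIs and 0 with the other gates limited to at most 2 *Amh* UMIs, a setting chosen after seeing the data. Lower than in Leydig cells became 2 at a fold of 1.5 and 2 in the wild-type library alone, lower than in germ cells became 1 at a fold of 1.5, and lower than in stroma became 1 in the wild-type library alone. Thinning left fewer UMIs per gene, and the cause of the other changes was not tested. Between the libraries, 3 log2 ratios turned: *Gata4* in stroma to -0.016 and *Dmrt1* in cycling Sertoli cells to 0.091 after thinning, and *Sox8* in Pax8-type cells to -0.28 with the limited gates. No paired analysis was possible because each genotype was 1 library. The 9 Pax8-type and 12 germ cells in the knockout-label library limit every value in them.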

Other observations

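Stroma cells with a UMI of *Sox9*, *Wt1* or *Emx2* were described after their values were seen. With no *Amh* UMI, *Wt1* was found in 8.74% and 10.4% of stroma cells and in 2.27% (0.0575 to 12.02%) and 4% (0.488 to 13.7%) of macrophage-gated cells, and *Emx2* in 1.79% and 3.19% of stroma cells and in 0 of 44 and 0 of 50 macrophage-gated cells, which allows up to 8.04% and 7.11%. These shares, like the knockout-label share of *Sox9*, lay within intervals that rest on few macrophage-gated cells. For *Wt1*, myoid cells with no *Amh* held 4.08 and 3.07 CPM against 10.5 and 11.6 CPM in these stroma cells. Among stroma cells with no *Amh* UMI, the 453 wild-type and 392 knockout-label cells with *Sox9* held 2248 and 2342 CPM of *Acta2*, the smooth muscle actin gene, against 1090 and 866 CPM in the others. *Mgp* stood at 1157 and 1273 CPM against 564 and 438 CPM, and *Foxs1* at 72.3 and 92.8 CPM against 31.0 and 28.7 CPM. Of 6595 stroma cells, 1152 also passed the myoid gate, which *Acta2* and *Myh11* set, and their part in these values was not tested. *Wt1* was lower in the cells with *Sox9* than in the others, at 6.47 against 11.2 CPM and 4.90 against 12.8 CPM, with ratios of 0.579 (0.399 to 0.817) and 0.381 (0.241 to 0.577).

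The 298 and 297 such stroma cells with *Wt1* held 232 and 338 CPM of *Lum*, the lumican gene, against 89.4 and 128 CPM in the others, and 32.02 and 24.96 CPM of *Gata6* against 12.4 and 15.3 CPM. The 61 and 91 stroma cells with *Emx2* were higher in the same genes: *Lum* stood at 307 and 432 CPM against 98.5 and 140 CPM, *Gata6* at 61.7 and 38.7 CPM against 13.3 and 15.4 CPM, and *Wt1* at 66.2 and 24.7 CPM against 9.45 and 11.1 CPM. A cell with more UMIs is likelier to show any of these genes, and these comparisons were made without thinning. Median depth was 10866 and 10962 UMIs in the stroma cells with *Sox9* against 9668 and 9743 in the others. It was 9456 and 10362 against 9842 and 9902 for *Wt1*, and 9686 and 11357 against 9818 and 9896 for *Emx2*. The part of depth in these values was not tested.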
